A study of Mus musculus with 12 samples.

Results

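Transcripts of 6 mRNA decapping and 5′ decay factors were examined in mouse oocytes lacking ZAR1 and ZAR2. The rows of Dcp1a, Dcp1b, Dcp2, Edc3, Edc4 and Xrn1 were taken by gene symbol from the deposited expression table of 23230 genes, a rule that sets no threshold on a measured value but was written with earlier results of these data known. Of these 6 genes, 4 (Dcp1a, Dcp2, Edc4 and Xrn1) reached at least 1 FPKM (counted fragments, scaled to transcript length and to library depth) in at least 1 library, as 11502 genes of the table did, and were tested. Dcp1b and Edc3 stayed under 1 FPKM in all 12 libraries and are given as values. In mm9, Dcp1a lies at chr14:31292751-31340242, Dcp1b at chr6:119125270-119171632, Dcp2 at chr18:44540154-44584623, Edc3 at chr9:57556347-57600306, Edc4 at chr8:108404781-108418808 and Xrn1 at chr9:95855179-95953446, all on the plus strand.

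Oocytes of WT and Zar1/2-null females, all on a C57BL6/ICR hybrid background, were compared at 3 stages, with 2 libraries in each of the 6 groups. The null females carried CRISPR/Cas9-made null alleles of both Zar1 and Zar2, so neither gene alone was tested. Growing oocytes came from females that the sample labels put at 13.5 days and the study's methods at 12 days of age. Fully grown oocytes with a germinal vesicle (GV) came from 21-day-old females 44 h after PMSG, the gonadotropin that stimulates follicle growth, and ovulated oocytes (MII) were collected 16 h after hCG, which triggers ovulation. Each library was made by Smart-seq2 from 10 pooled oocytes with oligo-dT primers and an ERCC spike-in, synthetic RNA standards given to every lysate alike. By the study's own account, ovulated null oocytes were at metaphase I without a polar body or still in telophase I. Stage and genotype therefore cannot be told apart there, and MII names the collection time of null oocytes, not their stage. The study held WT oocytes in meiosis I with nocodazole and found by RT-qPCR that selected mRNAs were still degraded. From this it proposes that the delayed mRNA decay of null oocytes was not secondary to the arrest. In the pooled libraries used here fewer copies of a transcript and a shorter poly(A) tail, which oligo-dT may capture less well, cannot be told apart.

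Decapping removes the m7G cap from the 5′ end of an mRNA and opens it to digestion from that end. DCP2 is the Nudix hydrolase that cuts the cap, DCP1A and DCP1B are its paralogous cofactors, EDC3 and EDC4 are enhancers of decapping, with EDC4 acting as a scaffold between DCP1 and DCP2, and XRN1 is the cytoplasmic 5′-to-3′ exonuclease that digests the uncapped body. Fully grown oocytes are transcriptionally silent and hold their mRNAs in stable store, and Dcp1a and Dcp2 are known dormant maternal mRNAs in the mouse, translated when meiosis resumes.

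For each of the 6 genes the longest annotated coding transcript was used (mm9, GENCODE M1, plus strand), and other annotated ends were not searched. These transcripts have a 3′ UTR of very unequal length. It measures 7240 bases in Dcp2, 4004 in Edc3, 3750 in Dcp1a, 1533 in Dcp1b, 363 in Edc4 and 218 in Xrn1. The last 200 bases of each annotated 3′ UTR were searched on the transcript strand for the cytoplasmic polyadenylation element (CPE, TTTTAT or TTTTAAT), the element through which CPEB proteins control tails of dormant mRNAs, and for the translational control sequence (TCS, written ATTATCT, with the other forms ATTGTCT, then TTTATCT, and last TTTGTCT) known as a motif bound by ZAR proteins. Dcp1a held 3 CPEs in this window and Xrn1 held 3, against none in the windows of the other 4 genes, and a CPE was present in 30.8% of the windows of 9234 genes. Xrn1 alone of the 6 held a TCS there, as 9.72% of genes did. The annotated 3′ UTR of Dcp2 held 12 CPEs and 3 TCS matches farther upstream, and its sequence is not shown. A match describes letters only, and whether these ends are the ones used in oocytes was not tested.

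Of the 4 sites below, 3 are shown because they carry the elements that Dcp1a and Xrn1 held and Edc4 did not in this window, and 1 because it shows what the end of Edc4 holds, with the motif in capitals and each sequence written 5′ to 3′ as DNA. In the first Dcp1a site shown (chr14:31340171-31340200) the motif starts 60 bases before the annotated transcript end. In the second (chr14:31340196-31340225) the motif starts 36 bases before that end and runs into the AATAAA poly(A) signal. Another Dcp1a CPE, 133 bases before the end, is not shown. In Xrn1 (chr9:95953243-95953272) the TCS starts 193 bases before the end and overlaps the CPE that starts 194 bases before it. Edc4 (chr8:108417086-108417115) had no CPE or TCS in the 3′ UTR of its longest coding transcript. That transcript stops short of the annotated gene end at chr8:108418808. The Edc4 site shows the poly(A) signal, AATAAA or ATTAAA, which 83.6% of gene windows held, those of Dcp1a and Xrn1 among them.
Dcp1a CPE, TTTTAT form: tttcatcctaaaTTTTATatgtttgcaaat
Dcp1a CPE, TTTTAAT form: caaatatatttTTTTAATaaaatttcaaaa
Xrn1 TCS: aattcatttctTTTATCTccatctactttt
Edc4 poly(A) signal: aaaggcttttggAATAAAagaaagtatgtg

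The deposited FPKM values had been multiplied by a factor from the ERCC share of each library, between 0.225 and 0.862 outside the WT growing libraries, so that 1 unit is meant to stand for the same amount of RNA in every group. Both WT growing libraries had a factor of 1. Sequencing depth, read from the step that 1 fragment adds to lowly expressed genes, was 0.914 to 1.24 times that of the first WT growing library. The targeted Zar1l, the table's symbol for Zar2, was at 639 and 644 FPKM in WT growing oocytes against 17.5 and 13.2 in null ones (log2 difference -5.31, limma adjusted p = 2.56e-08). Zar1 transcripts remained in the null libraries, at 407 and 460 FPKM in growing oocytes against 603 and 725 in WT. At MII they were at 190 and 194 FPKM against 83.6 and 72.4 in WT. The study describes its Zar1 null allele as a short deletion followed by a stop codon. It reports the loss of ZAR1 protein in oocytes by western blotting and immunohistochemistry. All 10 oocyte markers examined, among them Gdf9, Zp3 and Bmp15, were at 1 FPKM or more in every group except WT MII, where 9 were. Of 13 granulosa and cumulus genes, Amh reached at most 0.0317 FPKM and Ptx3 was at 0, while Cyp19a1 reached 19.0 and Nr5a2 11.5 FPKM. The summed list was 29.3 to 32.9 FPKM in WT growing oocytes, 14.5 to 22.7 in null growing, 17.5 to 19.9 in WT GV, 14.0 to 15.9 in null GV, 5.15 to 5.56 in WT MII and 7.29 to 8.49 in null MII. The 5 blood and immune genes summed to 3.02 and 3.07 FPKM in null growing oocytes against 0.458 and 1.21 in WT growing ones, and to 0.667 to 2.64 in the other groups. Nearly all of it was Cd68, a lysosomal gene of macrophages, which was higher in null growing oocytes (1.24 on the log2 scale, limma adjusted p = 0.00628), while Hbb-b1 and Hba-a1 were at 0 in every library, Ptprc reached 0.0438 and Lyz2 0.209 FPKM, each highest in a WT library. The 3 oviduct genes summed to at most 1.21 FPKM, with Krt19 at 0. The part of any such cells in the results below was not tested.

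Transcripts of the catalytic subunit were lower in null than in WT oocytes at all 3 stages. Dcp2 measured 8.36 and 7.06 FPKM in WT growing oocytes against 3.07 and 2.96 in null ones, 8.87 and 7.53 in WT GV oocytes against 2.40 and 2.49, and 3.82 and 4.19 in WT MII oocytes against 0.494 and 0.447. At each stage both null libraries lay below both WT libraries, and in WT oocytes the growing and GV libraries overlapped. The group means were 7.71 ± 0.92 and 3.02 ± 0.077 FPKM (SD, n = 2) in growing oocytes, 8.20 ± 0.95 and 2.45 ± 0.065 at GV, and 4.01 ± 0.27 and 0.471 ± 0.033 at MII. WT oocytes thus held 2.56, 3.35 and 8.51 times the Dcp2 level of null oocytes at the 3 stages.

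On the log2(FPKM + 1) scale, in which the added 1 FPKM makes the change of a low gene look smaller, the Dcp2 difference between null and WT was -1.11 ± 0.13 (SE) in growing oocytes, -1.41 ± 0.13 at GV and -1.77 ± 0.13 at MII. Its adjusted p-values were 0.000126, 3.2e-05 and 1.28e-06 (limma over 11502 genes, Benjamini-Hochberg). Only 58 of the 11502 genes, 0.504%, had a more negative log2 difference at MII than Dcp2, compared with 3.56% at GV and 6.06% in growing oocytes. By the fold rule of the study's methods (group means more than 3-fold apart, with values under 1 FPKM set to 1), Dcp2 was lower in null oocytes at GV, at 3.35-fold, where 4.12% of genes passed, and at MII, at 4.01-fold, where 1.29% passed. It was 2.56-fold lower in growing oocytes and did not pass there.

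**Figure D1:**
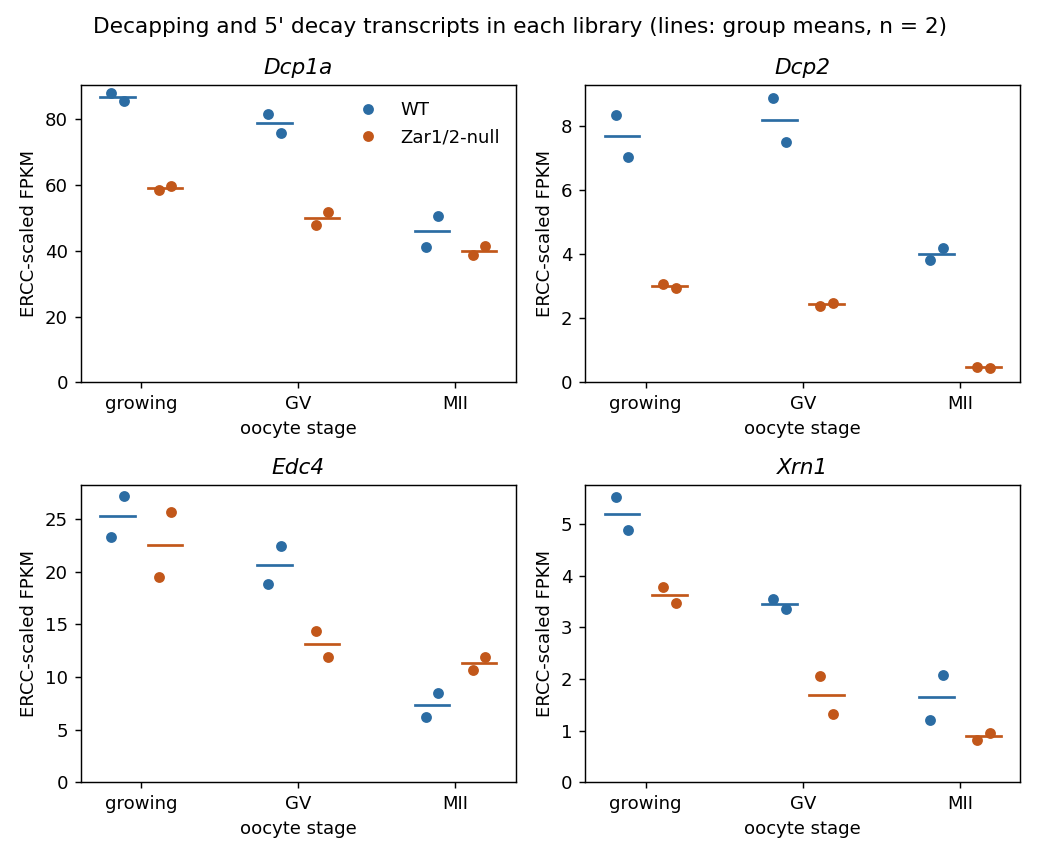
ERCC-scaled FPKM (linear axis from 0) of the 4 genes tested, by oocyte stage, with 1 point per library of 10 oocytes, a line at each group mean (n = 2), WT in blue and Zar1/2-null in orange. The null Dcp2 libraries lie below the WT libraries at every stage and reach 0.494 and 0.447 FPKM at MII, while Edc4 is higher in null than in WT oocytes at MII.

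How many fragments stood behind these values could be recovered for 5 of the 6 genes, since their values in a library were whole multiples of 1 common step within a tolerance of 0.02. These are the smallest whole numbers that satisfy the values, and Dcp1a gave none. Dcp2 rested on 793 and 809 fragments in WT growing libraries, 342 and 446 in null growing, 1016 and 1085 in WT GV, 437 and 397 in null GV, 1472 and 2043 in WT MII and 164 and 205 in null MII. The null MII level of 0.494 FPKM thus had a 95% Poisson interval of 0.422 to 0.576 FPKM and that of 0.447 one of 0.388 to 0.513, which cover counting error only. Xrn1 rested on 133 to 638 fragments and Edc4 on 994 to 2880, so counting error was at most 8.67% and 3.17% of their values.

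The cofactor Dcp1a was the most abundant of the 6 in every library. It measured 87.8 and 85.5 FPKM in WT growing oocytes against 58.5 and 59.6 in null ones, and 81.5 and 75.6 in WT GV oocytes against 47.9 and 51.6. At MII it measured 41.2 and 50.6 FPKM in WT and 38.6 and 41.2 in null oocytes, so the genotypes were apart at the first 2 stages and overlapped at the last. The log2 differences were -0.54 ± 0.14 (adjusted p = 0.0135) in growing oocytes, -0.65 ± 0.14 (adjusted p = 0.00453) at GV and -0.19 ± 0.14 (adjusted p = 0.376, 95% interval -0.51 to 0.13) at MII by limma. Without the ERCC scaling these differences were -0.26, -0.20 and -0.43, of which that at MII passed (adjusted p-values of 0.194, 0.353 and 0.0256). The call in growing oocytes was lost when any 1 of the 4 growing libraries was left out (adjusted p from 0.0529 to 0.0716). Cacna1d, which overlaps Dcp1a on the other strand, was at 0.0998 to 1.67 FPKM, and the libraries are not described as stranded.

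Dcp1b, the paralogous cofactor, was at 0.0493 to 0.234 FPKM on 4 to 13 fragments per library. No difference in Dcp1b was detectable at this depth, where 4 fragments have a Poisson interval of 1.09 to 10.2. Of the pair of DCP1 paralogs, Dcp1a was thus the one found at more than 1 FPKM in these oocytes.

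Among the enhancers, Edc4 differed between genotypes in opposite directions at GV and MII. It measured 23.3 and 27.2 FPKM in WT growing oocytes against 19.5 and 25.7 in null ones, which overlap, and 18.8 and 22.4 in WT GV oocytes against 14.4 and 11.9. At MII the order turned, with 6.25 and 8.47 FPKM in WT against 10.6 and 11.9 in null oocytes, and neither the GV nor the MII groups overlapped. The log2 differences were -0.16 ± 0.19 in growing oocytes (adjusted p = 0.536, 95% interval -0.58 to 0.26), -0.61 ± 0.19 at GV (adjusted p = 0.0236) and 0.57 ± 0.19 at MII (adjusted p = 0.0417) by limma.

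The calls for Edc4 depended on the scaling and on single libraries. Without the ERCC scaling its adjusted p-values were 0.635 at GV and 0.219 at MII. Leaving out either null MII library, the first WT MII library or any 1 of the WT growing or WT GV libraries took the MII call away (adjusted p from 0.0512 to 0.28). Leaving out the second WT GV or the second null GV library took away the GV call (adjusted p of 0.121 and 0.117). Nrn1l, a gene overlapping Edc4 on the same strand, was at 64.2 and 78.2 FPKM in WT growing, 54.5 and 41.5 in null growing, 85.6 and 86.9 FPKM in WT GV, 64.6 and 73.0 in null GV, 24.4 and 24.1 in WT MII and 46.4 and 49.2 in null MII. Like Edc4 it was lower in null than in WT oocytes at GV and higher at MII, but unlike Edc4 it was lower in growing than in GV oocytes of both genotypes. Its part in the Edc4 values was not tested.

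The other enhancer, Edc3, stayed under 1 FPKM but was not even across groups. It had 27 and 49 fragments in null growing libraries, or 0.652 and 0.875 FPKM, against 4 and 14 fragments, or 0.113 and 0.329 FPKM, in WT growing libraries. Edc3 had 4 to 17 fragments in GV libraries of either genotype and 0 to 2 at MII, where a count of 0 allows up to 3.69 fragments (95% Poisson). When genes were not filtered on their level, the growing difference was 0.53 on the log2(FPKM + 1) scale (limma adjusted p = 0.0131). Clk3, which overlaps Edc3 on the other strand, was at 21.6 and 26.1 FPKM in WT and 20.3 and 20.4 in null growing oocytes.

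The exonuclease Xrn1 was low, and on the ERCC scale its group means were lower at each later stage in both genotypes. Before scaling they were 5.20, 4.53 and 7.25 FPKM in WT growing, GV and MII oocytes and 4.42, 3.08 and 3.35 in null ones, so the order of MII and GV turned. It measured 5.53 and 4.88 FPKM in WT growing oocytes against 3.78 and 3.48 in null ones, 3.55 and 3.36 in WT GV oocytes against 2.07 and 1.33, and 1.20 and 2.09 in WT MII oocytes against 0.821 and 0.960. The genotypes did not overlap at any stage, the null libraries being the lower ones. By limma the log2 difference was -0.74 ± 0.18 at GV (adjusted p = 0.00746). Values of -0.42 ± 0.18 in growing oocytes (adjusted p = 0.0918, 95% interval -0.82 to -0.026) and -0.46 ± 0.18 at MII (adjusted p = 0.0734, 95% interval -0.86 to -0.068) did not pass. Without the ERCC scaling Xrn1 passed at MII (log2 difference -0.89, adjusted p = 0.0114) and not at GV (-0.47, adjusted p = 0.217), and leaving out the first WT GV or second null GV library also took the GV call away (adjusted p of 0.0542 and 0.0569).

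Counted over the 4 genes tested, 2 were lower in null growing oocytes (Dcp1a and Dcp2), where 24.4% of all 11502 genes were lower. At GV all 4 were lower, where 40.6% of all genes were. At MII 1 was lower (Dcp2), where 10.3% of all genes were, and 1 was higher (Edc4), where 21.5% were. The median log2 difference of the 4 was -0.48, -0.69 and -0.33 at the 3 stages, beside -0.16, -0.38 and 0.06 over all genes. By transcript length these medians were -0.18, -0.44 and -0.0020 for genes of 3 to 5 kb, the class of Edc4 (4780 bases), -0.21, -0.50 and -0.09 for genes of 5 to 8 kb, that of Dcp1a (5616) and Xrn1 (5499), and -0.21, -0.49 and -0.11 above 8 kb, that of Dcp2 (8643). Taking off the trend on length, a step chosen after seeing the data, also took off the shift of all genes, whose median at GV went from -0.38 to 0.043. After it Dcp2 remained lower at each stage (-0.88, -0.88 and -1.64, adjusted p of 0.000153, 0.000281 and 2.47e-07). Dcp1a remained lower in growing oocytes (adjusted p = 0.0493) and Edc4 higher at MII (adjusted p = 0.00862), whereas Dcp1a, Edc4 and Xrn1 were no longer called at GV (adjusted p of 0.513, 0.71 and 0.349). Scaling to the median gene, which has no length term, also ended these 3 calls at GV (-0.065, -0.056 and -0.36, adjusted p of 0.767, 0.878 and 0.301).

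**Figure D2:**
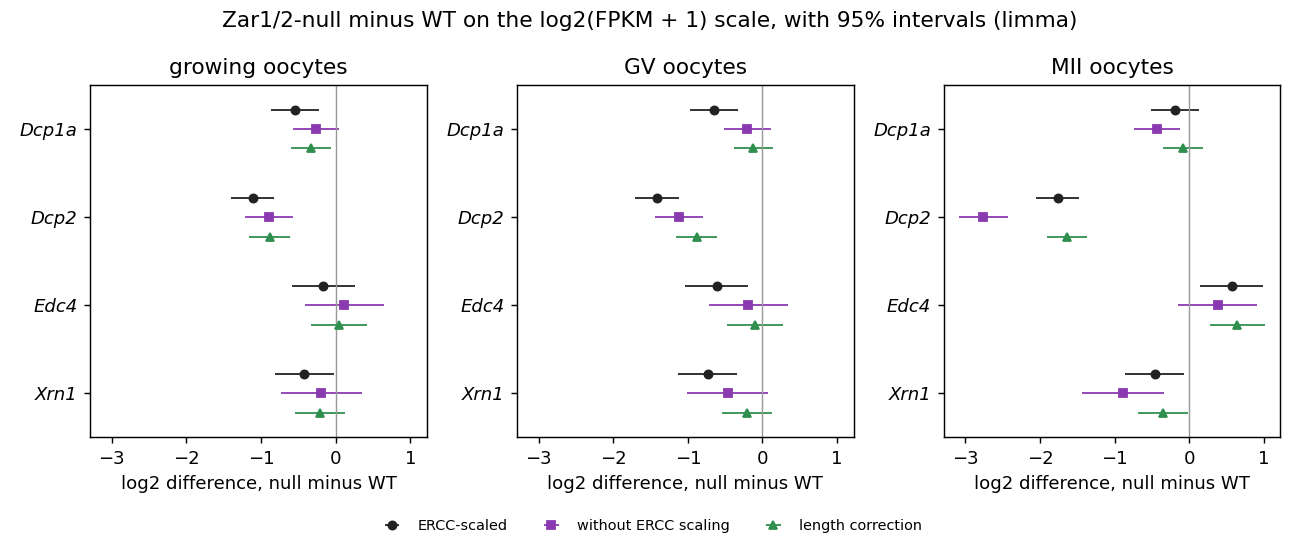
Log2 difference between Zar1/2-null and WT oocytes (limma, log2(FPKM + 1), points with 95% intervals) for the 4 genes at each stage, with ERCC-scaled values in black, values without the ERCC factor in purple and values corrected for transcript length in green. Dcp2 lies below 0 in all 9 estimates, while the Edc4 intervals without ERCC scaling cross 0 at all 3 stages.

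Ratios of members within a library do not depend on its ERCC factor. Dcp1a stood at 10.5 and 12.1 times Dcp2 in WT growing oocytes, 9.19 and 10.0 times at GV and 10.8 and 12.1 times at MII, so the WT ratio of cofactor to catalytic subunit transcripts stayed between 9.19 and 12.1 throughout. Null oocytes held 19.0 and 20.1 times as much Dcp1a as Dcp2 when growing, 19.9 and 20.7 times at GV and 78.0 and 92.2 times at MII. Every null library lay above every WT library, and both null MII libraries lay far above the other null libraries. Edc4 was at 1.64 to 3.86 times Dcp2 in WT libraries, at 4.76 to 8.67 times in null growing and GV libraries and at 21.5 and 26.7 times in null MII libraries. The Xrn1 level was 0.314 to 0.691 times that of Dcp2 in WT libraries, 0.534 to 1.23 times in null growing and GV libraries and 1.66 and 2.14 times in null MII libraries. These are per-length values on the FPKM scale, and no test was run on them.

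**Figure D3:**
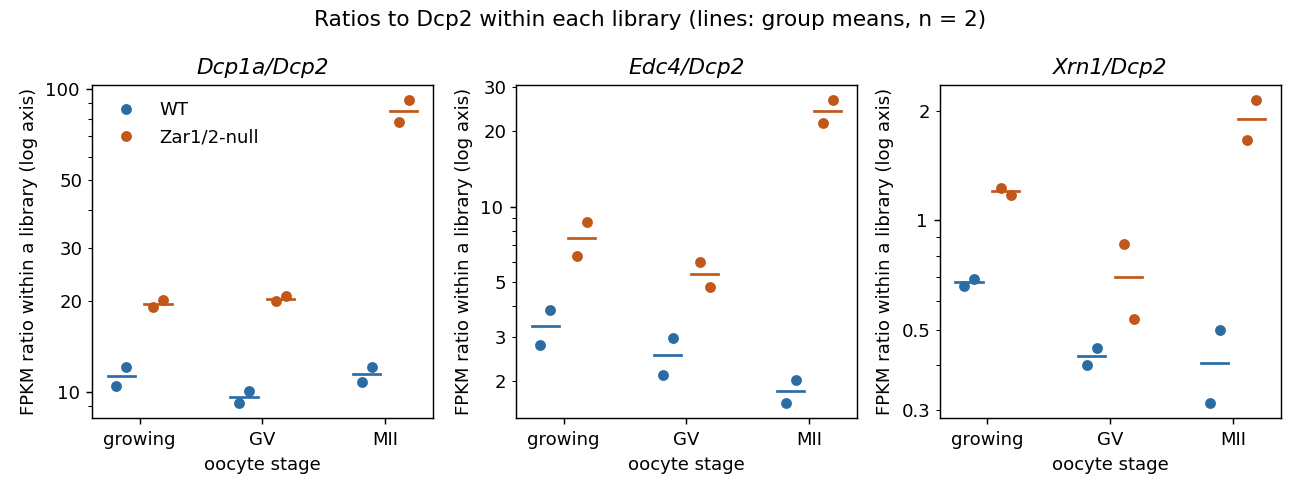
FPKM ratio of Dcp1a, Edc4 and Xrn1 to Dcp2 within each library (log axes), by oocyte stage, with 1 point per library, lines at group means (n = 2), WT in blue and Zar1/2-null in orange. The ratio of Dcp1a to Dcp2 stays between 9.19 and 12.1 in WT libraries and reaches 78.0 and 92.2 in null MII libraries.

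Ranks within a library, which the ERCC factor also leaves alone, placed Dcp2 at the 49.8th and 45.6th percentile of the 11502 genes in WT growing libraries, the 53.9th and 53.1st at GV and the 72.8th and 72.9th at MII. In null libraries Dcp2 stood at the 31.4th and 30.7th, the 37.8th and 38.3rd, and the 30.7th and 30.6th percentile. It thus moved up the order at MII in WT and not in null oocytes. Dcp1a stood between the 85.1st and 96.6th percentile in all 12 libraries, and higher at MII than at GV in both genotypes. Edc4 ranged from the 67.8th to the 84.8th and Xrn1 from the 26.1st to the 61.1st.

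From growing to GV oocytes in WT, 0 of the 4 genes changed by limma, where 28.7% of all genes were lower. That share rests on the scaling and on single libraries, since the 3306 genes lower became 372 without the ERCC factors and 877 to 2003 without the second WT GV or either WT growing library. Xrn1 had an unadjusted p of 0.0226 (log2 difference -0.48, adjusted p = 0.0642) and was the 1 gene of the 4 with an unadjusted p under 0.05, and the 3-fold rule also called 0. In null oocytes the same step took Edc4 from 22.6 ± 4.3 to 13.1 ± 1.8 FPKM (-0.73 ± 0.19, adjusted p = 0.00662) and Xrn1 from 3.63 ± 0.21 to 1.70 ± 0.52 FPKM (-0.79 ± 0.18, adjusted p = 0.0031), 2 of 4 lower where 55.9% of all genes were. Both calls ended when the ERCC factors were taken off (-0.21 and -0.44, adjusted p of 0.522 and 0.189), and that of Edc4 also without the second null growing library (adjusted p = 0.0655). The difference between the genotypes in this step was not called for any of the 4 by limma (0 also at an unadjusted p under 0.05), where 13.9% of all genes were called in either direction.

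From GV to MII, WT oocytes lost Dcp1a (-0.77 ± 0.14, adjusted p = 0.000356), Dcp2 (-0.88 ± 0.13, adjusted p = 6.84e-05), Edc4 (-1.38 ± 0.19, adjusted p = 3.22e-05) and Xrn1 (-0.77 ± 0.18, adjusted p = 0.00159) on the ERCC scale by limma. These 4 of 4 stand beside 93.4% of all genes that were lower. As a share of the GV mean, the WT MII mean was 58.4% for Dcp1a, 48.9% for Dcp2, 47.6% for Xrn1 and 35.7% for Edc4, each above the median of 19.6% over the 6478 genes with at least 5 FPKM in WT GV oocytes. Of those genes, 92.4% had a lower share left than Dcp1a and 82.8% a lower share than Dcp2. Xrn1, with a WT GV mean of 3.45 FPKM, was outside that set. These falls depend on the ERCC factor. Before scaling, the same MII means were 1.97, 1.65, 1.60 and 1.19 times the GV means for Dcp1a, Dcp2, Xrn1 and Edc4, and the differences of Dcp1a (0.97, adjusted p = 9.74e-05) and Dcp2 (0.68, adjusted p = 0.00182) were positive.

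In null oocytes the catalytic subunit kept the smallest share from GV to MII and the scaffold Edc4 the largest, while in WT Edc4 had kept the smallest. Null MII oocytes held 19.3% of the null GV level of Dcp2, against 86.0% for Edc4, 80.3% for Dcp1a and 52.5% for Xrn1. The median was 36.6% over the 5540 genes with at least 5 FPKM in null GV oocytes. Dcp2 and Xrn1, with null GV means of 2.45 and 1.70 FPKM, were outside that set. By limma Dcp2 (-1.23 ± 0.13, adjusted p = 7.38e-06) and Xrn1 (-0.50 ± 0.18, adjusted p = 0.0278) were lower, 2 of 4 where 68.7% of all genes were. Dcp1a (-0.31 ± 0.14, adjusted p = 0.0761) and Edc4 (-0.20 ± 0.19, adjusted p = 0.372) did not pass. The Dcp2 fall held without the ERCC scaling (-0.96, adjusted p = 0.000187), the only 1 of the 4 with a negative difference on that scale. The Xrn1 call was lost without either null MII library or the first null GV library (adjusted p from 0.0656 to 0.206).

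The difference of the null effect between MII and GV was tested with the same libraries, so it shares them with the comparisons above. It was called for Edc4 (1.18 ± 0.27, adjusted p = 0.00684), 1 of 4 higher where 33.9% of all genes were, and the adjusted p was 0.276 without the ERCC scaling. For Dcp2 it was -0.35 ± 0.19 (adjusted p = 0.162), although 2.8% of genes had a more negative value. This last result depended on several choices. The Dcp2 difference passed with a pseudocount of 0.1 FPKM in place of 1 FPKM (-1.15, adjusted p = 0.00405), without ERCC scaling (-1.64, adjusted p = 0.00015), with median scaling (-2.09, adjusted p = 2.73e-05) and with the length correction (-0.76, adjusted p = 0.00847).

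**Figure D4:**
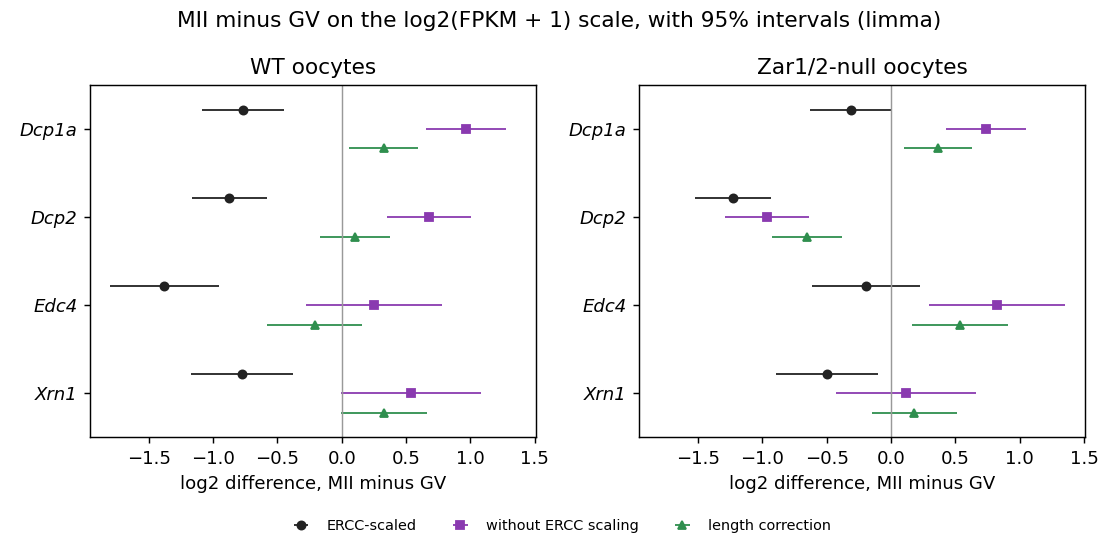
Log2 difference between MII and GV oocytes (limma, log2(FPKM + 1), points with 95% intervals) for the 4 genes in WT and Zar1/2-null oocytes, with ERCC-scaled values in black, values without the ERCC factor in purple and values corrected for transcript length in green. All 4 WT genes lie below 0 on the ERCC scale and above 0 without it, whereas Dcp2 in null oocytes lies below 0 in all 3 estimates.

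The scaling moved all genes, not the members alone. Without the ERCC factors the median log2 difference over all genes went from -1.28 to -0.43 for MII against GV in WT, from -0.72 to -0.28 in null oocytes, from -0.38 to -0.03 for null against WT at GV and from -0.16 to 0.08 in growing oocytes. The split of calls moved with it, from 1224 higher and 2801 lower to 1711 and 1412 in growing oocytes, from 325 and 4666 to 827 and 1554 at GV, and from 2472 and 1183 to 2831 and 2694 at MII. For the step from GV to MII in WT it went from 12 higher and 10747 lower to 2267 and 5473, and for that from growing to GV from 319 and 3306 to 421 and 372. Single libraries also moved the numbers of genes lower in null oocytes, to 1719 in growing oocytes without the second null growing library, to 2722 at GV without the first WT GV library and to 681 to 764 at MII without the second WT or either null MII library.

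Genes whose profile over the 12 libraries came nearest to each member, by the root mean square distance of centred log2(FPKM + 1), are given as a description. Gm1943 (0.15) and Gnai1 (0.17) came nearest to Dcp2, where the median gene of 5888 with a mean of at least 5 FPKM was at 0.94. Gnai1, a G protein subunit gene, had group means of 11.7, 11.9 and 7.10 FPKM in WT growing, GV and MII oocytes and 6.29, 3.84 and 1.58 in null ones. Wdr47 (0.092) and Cep164 (0.10) came nearest to Dcp1a, Stk35 (0.082) and Usp34 (0.098) to Xrn1, and E2f1 (0.13) and Icmt (0.14) to Edc4. Dcp2 itself lay at 0.58 from Dcp1a, 0.54 from Xrn1 and 0.80 from Edc4, and the nearest pair of members was Dcp1a and Xrn1 at 0.28.

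Other genes of mRNA decay were read from 4 lists. Of 15 genes listed as decapping activators, 2 were higher and 2 lower in null growing oocytes, and 0 higher and 6 lower at GV. At MII 8 were higher and 2 lower, with a median of 0.52 beside 0.06 over all genes. The name is that of the list, and what each gene does in oocytes was not tested. Over all genes 10.6% were higher and 24.4% lower in null growing oocytes, 2.83% and 40.6% at GV, and 21.5% and 10.3% at MII, so the share of activators lower at GV was near that of all genes. The 2 lower at MII were Lsm14b (-0.76) and Pnrc1 (-0.51). Lsm4 measured 0.326 and 0.352 FPKM in WT MII oocytes against 28.2 and 24.2 in null ones (4.34 ± 0.14, adjusted p = 1.62e-09), Lsm6 1.03 and 0.930 against 19.9 and 15.3 (3.22 ± 0.18, adjusted p = 9.92e-08) and Lsm2 7.19 and 10.7 against 64.4 and 64.1 (2.74 ± 0.17, adjusted p = 2.78e-07) by limma. In WT the largest falls of this list from GV to MII were -5.00 for Lsm4, -4.57 for Lsm6 and -4.13 for Lsm3. Without the ERCC scaling 7 activators were higher and 5 lower at MII, 1 higher and 1 lower at GV, and 2 higher and 0 lower in growing oocytes, where over all genes 24.6% were higher and 23.4% lower at MII, 7.19% and 13.5% at GV, and 14.9% and 12.3% in growing oocytes.

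Lsm1 to Lsm7 encode the 7 subunits of the cytoplasmic LSM ring, which binds the 3′ end of deadenylated mRNAs and promotes their decapping. As a subset chosen after the values were seen, all 7 were higher in null MII oocytes, by 0.52 to 4.34 on the log2 scale. Lsm1 had the smallest difference of the 7, at 0.52. Without the ERCC scaling 6 were called higher (Lsm1 was not, limma adjusted p = 0.0733), as with median scaling (Lsm1 adjusted p = 0.272). After the length correction 5 were called, Lsm7 turning to -0.098 (adjusted p = 0.663) and Lsm1 having an adjusted p of 0.0587. Over all genes 2831 of 11502 were higher without ERCC scaling, 2749 with median scaling and 2103 of 10765 after the length correction. Of these 7 genes, 5 have transcripts under 1 kb (468 to 925 bases). On the ERCC scale, 53.4% of all genes under 1 kb were higher in null MII oocytes. Neither the amount of the ring nor decapping itself was measured.

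**Figure D5:**
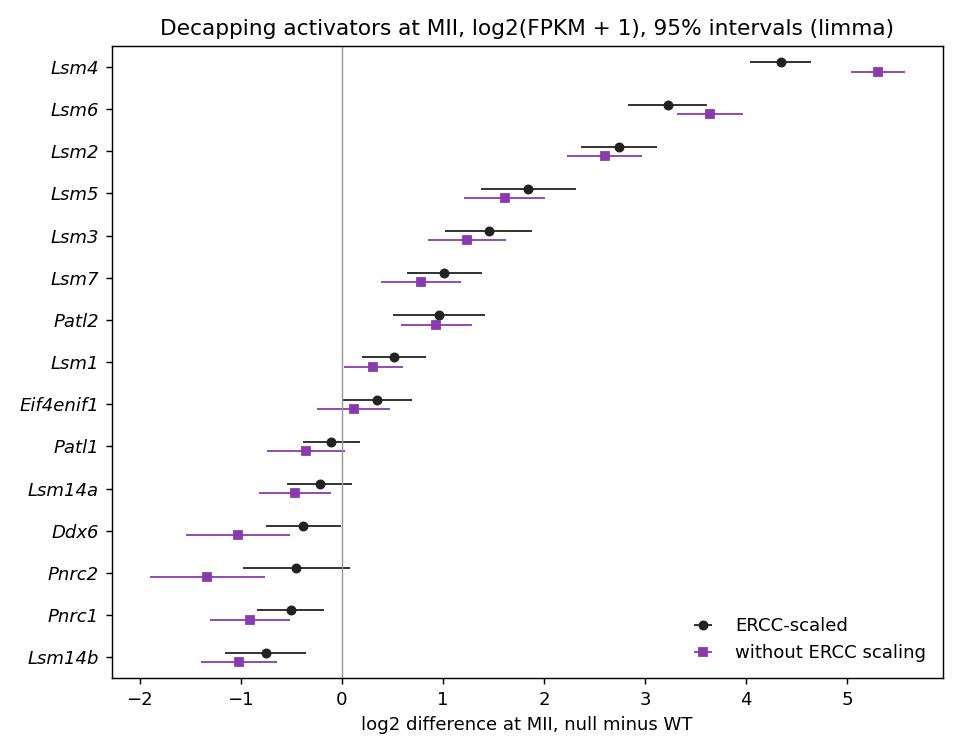
Log2 difference between Zar1/2-null and WT MII oocytes (limma, log2(FPKM + 1), points with 95% intervals) for 15 decapping activators, ordered by the ERCC-scaled value, with ERCC-scaled values in black and values without the ERCC factor in purple. Lsm4, Lsm6 and Lsm2 lie highest on both scales, and Lsm14b lies lowest on the ERCC scale at -0.76.

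The other 3 lists had fewer calls at MII, and their counts stand beside the same shares over all genes, 10.6% higher and 24.4% lower in growing oocytes, 2.83% and 40.6% at GV and 21.5% and 10.3% at MII. Of 6 other cap hydrolases and 5′ exonucleases, 5 were tested, with 1 higher in null growing oocytes, 0 called at GV and 1 higher at MII. That 1 was Nudt3, a Nudix hydrolase gene (0.66, adjusted p = 0.0215, limma), while Xrn2, the nuclear counterpart of Xrn1, measured 14.2 FPKM in both WT MII libraries and 18.1 and 19.9 in null ones without a call. Of 15 genes of the RNA exosome and SKI complex, which degrade RNA from the 3′ end, 2 were higher and 2 lower in growing oocytes, 5 lower at GV, and 4 higher and 2 lower at MII. Skiv2l, the helicase of the SKI complex, was higher by 1.22 at MII (0.169 and 0.313 FPKM in WT, 1.66 and 2.14 in null). Of 8 nonsense-mediated decay factors, 1 was higher and 3 lower in growing oocytes, 3 lower at GV, and at MII 1 was higher and 1 lower (Upf2, -0.43). On values without the ERCC factor, the calls at MII were 2 higher and 0 lower for the cap hydrolases and 5′ exonucleases, 4 higher and 5 lower for the exosome and SKI genes, and 2 higher and 4 lower for the nonsense-mediated decay factors, beside 24.6% higher and 23.4% lower over all genes. From GV to MII in WT all members of the 4 lists that were tested were lower on the ERCC scale, as 93.4% of all genes were. Without ERCC scaling 4 higher and 7 lower of the 15 decapping activators were called. The calls were then 3 higher and 8 lower of the 15 exosome and SKI genes. They were 2 and 2 of 5 cap hydrolases and 5′ exonucleases, and 4 and 2 of 8 nonsense-mediated decay factors. Over all genes 19.7% were higher and 47.6% lower on that scale.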

How the data were processed

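Reads trimmed to 50 bp were aligned by the authors to mm9 (TopHat2 2.1.1), and those with a unique position were quantified per gene (Cufflinks 2.2.1, versions per the submitters' processing notes). The deposited FPKM values carry an ERCC factor per library, in a single table with 23230 genes. Groups and replicates were taken from the sample titles. The labels do not say whether the 2 libraries of a group came from separate females, so p-values measure the spread between libraries, which may be technical.

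ERCC factors were recovered from the values, which return to 6 digits once divided by them. Depth was read from 180 to 290 lowly expressed genes in each library set against the first WT growing library. Separately, the search for whole fragments was tried on 300 lowly expressed genes and succeeded for 252. Since FPKM are not counts, no count test was used.

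Genes reaching 1 FPKM anywhere (11502) entered a limma 3.58.1 fit in R 4.3.3 on log2(FPKM + 1), 6 group terms across 12 libraries, eBayes with an intensity trend and Benjamini-Hochberg adjustment, and were called at an adjusted p under 0.05. An exact permutation test of 2 against 2 libraries cannot go below 0.333. The fit was tested on simulated data before use. Values are mean ± SD over 2 libraries, and log2 differences ± SE. Genes named are the members, Zar1 and Zar1l, up to 3 called genes of each list with the largest change at MII or from GV to MII, and the 2 nearest profiles per member. Others (overlapping genes, Lsm1 to Lsm7, Lsm14b, Pnrc1 and Xrn2) were named after their values were seen. The members and lists were chosen with earlier results of these data known, so no count over them is independent support. Positions, lengths and sequences came from the mm9 genome with GENCODE M1.

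Alternatives were no ERCC scaling, median scaling, a pseudocount of 0.1 FPKM, a mean of at least 5 FPKM, no filter, no intensity trend, only the groups compared, a replicate block, the 3-fold rule and leaving out each library. A correction for transcript length (lowess) and a crossed replicate block were added after seeing the data. Imaging, immunoblot and RT-qPCR data were not analysed here. The value of 1 gene of the nonsense-mediated decay list is not reported here.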

Additional observations from a re-analysis of the deposited data

Results flagged for a closer look

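The null effect on Edc4 differed between stages. It was -0.61 on the log2(FPKM + 1) scale at GV and 0.57 at MII, and the difference of 1.18 passed the limma interaction test (adjusted p = 0.00684). Nrn1l, which overlaps Edc4 on the same strand, was likewise lower in null oocytes at GV and higher at MII, and its part was not tested. Without the ERCC scaling the difference was 0.57 (adjusted p = 0.276).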

How the results depend on the processing

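By limma the calls for Dcp2 between null and WT oocytes held at all 3 stages under every scaling, pseudocount, filter and left-out library tried, with the exception that it was not tested where a mean of at least 5 FPKM was asked for, which leaves out Dcp2 and Xrn1. Counts of members called at growing, GV and MII, 2, 4 and 2 as reported, were 1, 1 and 3 without ERCC scaling, 1, 1 and 3 with median scaling, 1, 2 and 1 with the 5 FPKM filter, and 0, 1 and 1 by the 3-fold rule. At MII the count was 1 without a filter and 1 with only the groups compared, and at GV it was 1 with the length correction. Over all genes, median scaling gave 1175 higher and 1496 lower in growing oocytes, 1056 and 1056 at GV, and 2749 and 3437 at MII. With the 5 FPKM filter these were 313 and 1369, then 118 and 2494, then 2003 and 920 of 5966 genes. After the length correction 1390 were higher and 1450 lower at GV, of 10765 genes. At MII 1983 were higher and 883 lower of 23230 without a filter, and 2929 and 1380 with only the groups compared. From GV to MII in WT the 4 calls became 2 without ERCC scaling (both higher) and 4 with median scaling (all higher). Over all genes median scaling gave 4788 higher and 3660 lower for this step. The calls became 2 with the 5 FPKM filter (where 5821 of 5966 genes were lower), 1 with the length correction (higher) and 0 by the 3-fold rule. After the length correction 4020 of 10765 genes were higher and 3598 lower. In null oocytes the 2 calls from growing to GV became 0 without ERCC scaling, 1 with median scaling (higher) and 1 with the length correction (higher). They became 1 with the 5 FPKM filter and 0 by the 3-fold rule. Over all genes 2242 were higher and 1615 lower in this step with median scaling, and 2349 and 2039 of 10765 with the length correction. The 2 from GV to MII became 3 without ERCC scaling (2 of them higher) and 4 with median scaling (3 of them higher). Over all genes 2248 were higher and 4656 lower in that step without ERCC scaling, and 4411 and 3164 with median scaling. With the length correction they were 3 (2 of them higher), where 3946 of 10765 genes were higher and 3309 lower. They were 0 with the 5 FPKM filter and 0 by the 3-fold rule. For the difference of the null effect, the 0 between GV and growing became 1 without a filter (Edc3). There 268 of 23230 genes were higher and 1033 lower. The 1 between MII and GV became 2 with a pseudocount of 0.1 FPKM and 2 with the length correction. Dcp2 was called lower in both. Over all genes 4029 were higher and 89 lower of 11502 with that pseudocount, and 1242 and 1026 of 10765 with the length correction. Beyond fewer genes or samples, the cause was not tested.

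Leaving out 1 library at a time moved the sizes of the differences between null and WT oocytes. That of Dcp2 ran from -1.22 to -1.01 in growing oocytes, -1.52 to -1.31 at GV and -1.82 to -1.71 at MII. That of Dcp1a ran from -0.56 to -0.53, -0.70 to -0.60 and -0.34 to -0.045 at the same stages. Edc4 ran from -0.74 to -0.48 at GV and 0.37 to 0.76 at MII. Xrn1 ran from -0.93 to -0.54 at GV and -0.71 to -0.22 at MII. From GV to MII, Dcp2 ran from -0.98 to -0.77 in WT and -1.25 to -1.21 in null oocytes. The Dcp2 difference between WT GV and growing oocytes ran from -0.029 to 0.19 and the Edc4 difference between null and WT growing oocytes from -0.35 to 0.025. Directions otherwise turned only with scaling or length. Without ERCC scaling the Dcp1a differences that turned were 0.24 (WT, GV minus growing), 0.97 (WT, MII minus GV), 0.30 and 0.74 (the same steps in null), and 0.058 and -0.23 (null effect at GV minus growing and at MII minus GV), and with median scaling they were 0.21, 1.91, 0.51, 1.41, 0.30 and -0.50. For Dcp2 they were 0.68 (WT, MII minus GV) and 0.20 (null, GV minus growing), and 1.58 and 0.37 with median scaling. For Edc4 they were 0.11 (null minus WT, growing), 0.090 (WT, GV minus growing), 0.25 (WT, MII minus GV) and 0.82 (null, MII minus GV), and 0.0080, 0.053, 1.17 and 1.49 with median scaling. For Xrn1 they were 0.54 (WT, MII minus GV), 0.11 (null, MII minus GV) and -0.42 (null effect at MII minus GV), and 1.39, 0.67 and -0.71 with median scaling. With the length correction the first 5 Dcp1a differences were 0.12, 0.33, 0.33, 0.36 and 0.21, those of Dcp2 were 0.10, 0.30 and 0.0037 (null effect at GV minus growing), those of Edc4 0.044, 0.0047 and 0.54 (its WT fall from GV to MII did not turn) and those of Xrn1 0.33, 0.18 and -0.15.

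Against the ERCC shares in the study's supplement, each other library's factor came nearest to a ratio with the WT growing library of its number. Both WT growing libraries had a factor of 1 at unequal shares, and both WT GV libraries 0.836 and 0.697 at equal shares. Dcp2 in the WT GV libraries was at 10.6 and 10.8 FPKM before scaling and at 8.87 and 7.53 after it. The scaling thus linked libraries by number. Beyond that the replicate number was not shown to pair the libraries, since correlations of the deviations of same-numbered libraries ran from -0.117 to 0.163 (WT growing with null growing 0.163, WT GV with null GV -0.117, WT MII with null MII 0.087). With the replicate block no call of the 4 members changed, at 2 in growing oocytes, 4 at GV and 2 at MII, and exchanging the numbers of the null GV libraries left 4 called at GV.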

Other observations

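Both null growing libraries had more Edc3 fragments than any other library (27 and 49, against 4 and 14 in WT growing and 0 to 17 in the GV and MII libraries). Its levels were under 1 FPKM throughout, and without a filter on level its difference between the null effects at GV and in growing oocytes was -0.74 on the log2(FPKM + 1) scale (limma adjusted p = 0.0324).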
